A study of Mus musculus with 11 samples.

Results

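The genes described here encode antimicrobial products of Paneth cells and a protease that activates some of them: Lyz1, Defa3, Defa4, Defa5, Ang4, Mmp7, Itln1, Mptx1 and Mptx2. These 9 genes were chosen by name among 12675 named genes measured in intestinal epithelial cells (IECs) of the ileum and 12831 in IECs of the colon. All 9 had a row in the ileum table, Defa4 in a row shared with Gm10104. In the colon 5 had a row, whereas Defa3, Defa4, Defa5 and Mptx2 were absent. The comparison was between Vil-Ogt KO and WT male mice at 10 weeks of age. In Vil-Ogt KO mice, labelled IEC-OGT KO, a Cre recombinase driven by the Villin promoter deletes a floxed allele of Ogt throughout the epithelium, so that the deletion is not confined to Paneth cells. RNA of each sample was pooled in equal amounts for library construction, and how many mice stand behind a library is not given in the sources used here. Whether the WT mice carried the floxed allele without Cre is likewise not given. RNA was sequenced from 3 libraries of Vil-Ogt KO ileum, 2 of WT ileum, 3 of Vil-Ogt KO colon and 3 of WT colon. The authors' tables give 1 pooled level per genotype and tissue, in log2 FPKM (fragments mapped to a transcript, scaled to its length and to the depth of sequencing). No SD or standard error therefore stands beside any value. No test was run here on these pooled values, the authors' own test columns were not used, and the spread between libraries was not analysed here. Differences of more than 2-fold are counted as a description. Ogt, which encodes the enzyme that adds O-GlcNAc, stood at 3.92 FPKM in Vil-Ogt KO ileum against 10.5 FPKM in WT ileum, and at 8.17 FPKM in Vil-Ogt KO colon against 32.4 FPKM in WT colon.

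Paneth cells sit at the base of small intestinal crypts between the stem cells and discharge granules into the crypt lumen. Their granules hold lysozyme, which cuts the bacterial cell wall, and alpha-defensins, short peptides with paired cysteines that damage bacterial membranes. In mice the alpha-defensins, also called cryptdins, are stored as precursors and cut to their active form by the protease matrilysin, the product of Mmp7. The colon normally lacks mature Paneth cells. In RNA of whole isolates, a difference in the number of Paneth cells and a difference in RNA per Paneth cell cannot be told apart, in either direction.

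The labelled gut segments were checked against marker genes first, because WT ileum stood apart. Fabp6, the bile acid binding protein of the ileum, had 15393 FPKM in Vil-Ogt KO ileum and 4153 FPKM in WT ileum, against 93.1 FPKM in Vil-Ogt KO colon and 11.6 FPKM in WT colon, so that both ileum isolates carried this ileal marker. All 15 small intestine markers in the ileum table were nevertheless more than 2-fold higher in Vil-Ogt KO ileum, against 15.2% of all named genes. Their median was 3.65 on the log2 scale, with sums of 37354 FPKM in Vil-Ogt KO ileum and 6058 FPKM in WT ileum. The glucose carrier gene Slc2a2 had 24.6 FPKM in Vil-Ogt KO ileum and was near 0 in WT ileum at 0.0928 FPKM, and the lactase gene Lct had 3.12 FPKM in Vil-Ogt KO ileum against 0.0257 FPKM in WT ileum. Large intestine markers ran the other way. Of the 9 measured in the ileum, 8 were more than 2-fold lower in Vil-Ogt KO ileum, against 15% of all named genes. None was more than 2-fold higher (median -2.37), and their FPKM summed to 369 in Vil-Ogt KO ileum and 7071 in WT ileum. Car1, a carbonic anhydrase of colonocytes, had 170 FPKM in Vil-Ogt KO ileum against 5914 FPKM in WT ileum. Car1 alone thus made up most of the WT sum, and it had no row in the colon table. The water channel gene Aqp8 had 0.257 FPKM in Vil-Ogt KO ileum against 70.5 FPKM in WT ileum, where WT colon, in a table normalized separately, had 182 FPKM. Slc37a2, with the largest difference of the list, had 0.155 FPKM in Vil-Ogt KO ileum against 92.4 FPKM in WT ileum, where WT colon had 59.3 FPKM. The exception among the 9 was Ceacam20, in a row shared with Nlrp9b, at 42.2 FPKM in Vil-Ogt KO ileum and 28.4 FPKM in WT ileum. Fabp6 and Ceacam20 are named with their values in view. What part a difference in the gut segment of the isolates has in the values of the 9 genes was not tested.

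The alpha-defensin genes are near copies of each other, and this bears on how their reads were assigned. The coding sequences of Defa3 (chr8:21287443-21288280, plus strand) and Defa5 (chr8:21297439-21298278, plus strand) in GENCODE M21 on GRCm38, the mm10 assembly of the tables, are shown with every base that differs between them in capitals.
Defa3: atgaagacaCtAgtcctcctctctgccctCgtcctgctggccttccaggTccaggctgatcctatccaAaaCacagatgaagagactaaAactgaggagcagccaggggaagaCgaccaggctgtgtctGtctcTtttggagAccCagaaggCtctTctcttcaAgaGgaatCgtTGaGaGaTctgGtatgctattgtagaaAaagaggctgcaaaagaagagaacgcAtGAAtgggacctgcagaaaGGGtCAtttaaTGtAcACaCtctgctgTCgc
Defa5: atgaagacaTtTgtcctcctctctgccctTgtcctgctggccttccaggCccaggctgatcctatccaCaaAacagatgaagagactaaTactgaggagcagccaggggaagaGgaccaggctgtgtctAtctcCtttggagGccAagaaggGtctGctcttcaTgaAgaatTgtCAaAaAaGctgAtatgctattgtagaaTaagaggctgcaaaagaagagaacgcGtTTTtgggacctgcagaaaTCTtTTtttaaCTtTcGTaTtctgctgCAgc
Both are 279 bases long and differ at 41 positions, an identity of 85.3%, and their longest identical stretch is 25 bases. Most of the capitals lie towards the 3′ end, which encodes the mature peptide. The reads of this study were 75 bases long. Of all 75-base words in the annotated Defa3 transcript, 87.8% also occur in the transcript of another gene, most often Defa17, and for Defa5 the share is 97.4%, most often Defa34. The Defa4 row covers chr8:21065038-21089644, a stretch in which RefSeq places Defa35 (formerly Gm10104) and Defa25 but no gene named Defa4. The words shared with other genes were 38% for Defa35 and 59.5% for Defa25. Values of the alpha-defensin members are thus uncertain as to which copy they belong to. This does not hold equally for every alpha-defensin. Among the other named rows of their cluster with an annotated transcript, the share ran from 6.53% for AY761184 and 6.67% for Defa24 to 100% for Defa20. The other members shared far less: 6.22% of the words of Lyz1 (with Lyz2), 10.1% each of Mptx1 and Mptx2 (with each other), 5.03% of Mmp7, 0.787% of Ang4 and 0% of Itln1.

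In the ileum, 6 of the 8 members with a level above 0 in both genotypes were more than 2-fold higher in Vil-Ogt KO IECs and none was more than 2-fold lower. Of all 12629 named genes with a level above 0 in both genotypes, 15.2% were more than 2-fold higher and 15% more than 2-fold lower, 30.2% in all. The median difference of the 8 members was 3.98 on the log2 scale, against -0.07 over all genes. The 6 that were higher are lysozyme, the alpha-defensins, an intelectin and a pentraxin. The 2 that lay within 2-fold are Ang4 and Mmp7. Mptx1 was listed at 0 FPKM in Vil-Ogt KO ileum. These directions differ from the study's RT-qPCR, a different measure made on ileum tissue. There the study reports lower Defa3, Defa4, Defa5 and Ang4 in Vil-Ogt KO, and Lyz1 without a change. It also reports lower Defa6 and a lower signal of a primer pair named Pan Defensin, so its contrast with these values is not confined to single alpha-defensins. The study further reports fewer Paneth cells in Vil-Ogt KO ileum. What underlies the contrast was not tested.

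Lyz1 (chr10:117287795-117292868), the lysozyme gene of Paneth cells in mice, stood at 936 FPKM in Vil-Ogt KO ileum and at 55.3 FPKM in WT ileum, a difference of 4.08 on the log2 scale or 16.9-fold. In the order of levels among the 12675 named genes, Lyz1 took place 99 in Vil-Ogt KO ileum against place 1781 in WT ileum. Lyz2, the lysozyme gene of macrophages with which Lyz1 shares some sequence, stood at 2.79 FPKM in Vil-Ogt KO ileum and 1.39 FPKM in WT ileum. Lyz2 was thus low in both genotypes.

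The alpha-defensin members differed by similar or larger factors, at lower levels. Defa3 had 22.2 FPKM in Vil-Ogt KO ileum against 1.51 FPKM in WT ileum, or 3.88 on the log2 scale. Defa5 (chr8:21297394-21298375) had 58.9 FPKM in Vil-Ogt KO ileum against 2.91 FPKM in WT ileum, or 4.34 on the log2 scale. The row of Defa4 and Gm10104 had 63.1 FPKM in Vil-Ogt KO ileum against 1.11 FPKM in WT ileum, a difference of 5.83 that exceeded those of 99.8% of all named genes. In WT ileum these 3 rows were the lowest of all the members, below even Mptx1. With reads shared so widely between copies, the order of the alpha-defensins among themselves carries little weight.

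Intelectin 1 and mucosal pentraxin 2 were higher too. Itln1 (chr1:171518124-171535294) encodes a lectin that binds sugars of microbial surfaces and is made by Paneth and goblet cells, and it stood at 333 FPKM in Vil-Ogt KO ileum and 83.9 FPKM in WT ileum, or 3.97-fold. Mptx2 (chr1:173272326-173277756) marks Paneth cells of the mouse small intestine. It stood at 118 FPKM in Vil-Ogt KO ileum against 5.78 FPKM in WT ileum, which is 20.4-fold.

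Ang4 and Mmp7 did not share this pattern. Ang4 (chr14:51763892-51773590) encodes a secreted ribonuclease that kills microbes in mice. It stood at 124 FPKM in Vil-Ogt KO ileum and 120 FPKM in WT ileum, a difference of 0.05 on the log2 scale. Mmp7 (chr9:7692111-7699416) stood at 59.7 FPKM in Vil-Ogt KO ileum and 77.2 FPKM in WT ileum, a difference of -0.37. The mRNA of the protease that activates the defensins was close in both genotypes where the defensin mRNAs were not. The order of the members differed between the genotypes. In Vil-Ogt KO ileum it ran from Lyz1 through Itln1, Ang4, Mptx2, the Defa4 row, Mmp7, Defa5 and Defa3 to Mptx1 at 0, whereas in WT ileum Ang4 was highest, followed by Itln1, Mmp7 and Lyz1. Neighbours in these orders cannot be separated without a spread, above all the Defa4 row, Mmp7 and Defa5 in Vil-Ogt KO ileum at 63.1, 59.7 and 58.9 FPKM.

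**Figure D1:**
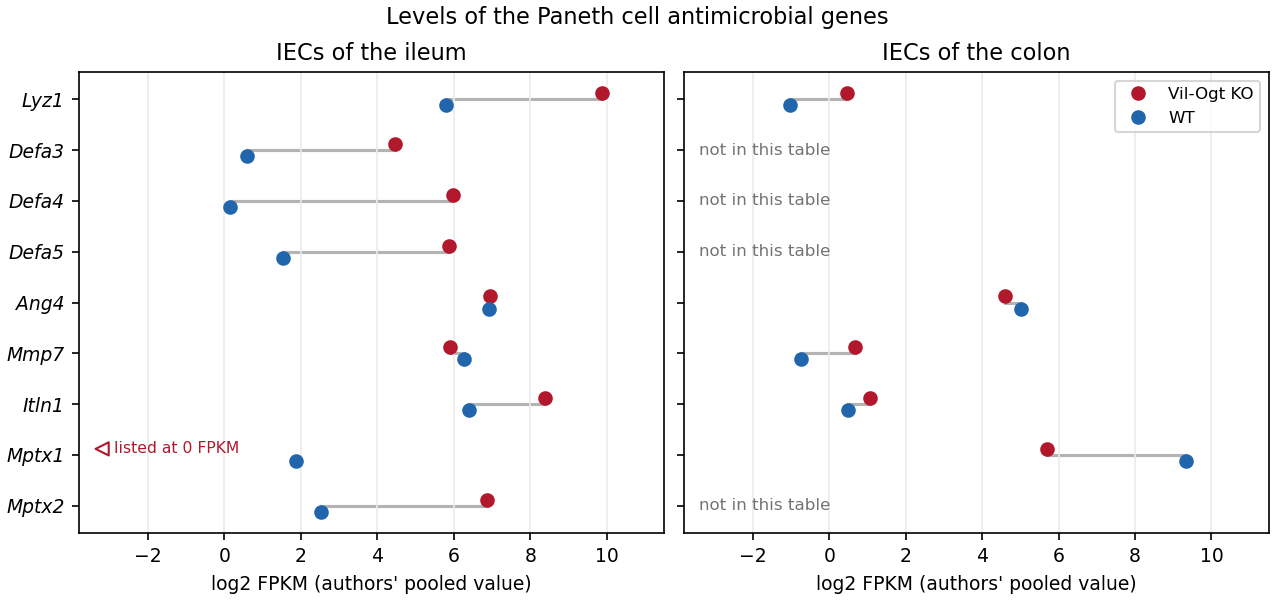
Level of each of the 9 genes in log2 FPKM (horizontal axis) in IECs of the ileum (left) and colon (right), with Vil-Ogt KO in red and WT in blue; each point is 1 pooled value of the authors without error. In the ileum Lyz1, Defa3, Defa4, Defa5, Itln1 and Mptx2 lie further right in Vil-Ogt KO, Ang4 and Mmp7 nearly coincide, and Mptx1 is listed at 0 FPKM in Vil-Ogt KO.

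**Figure D2:**
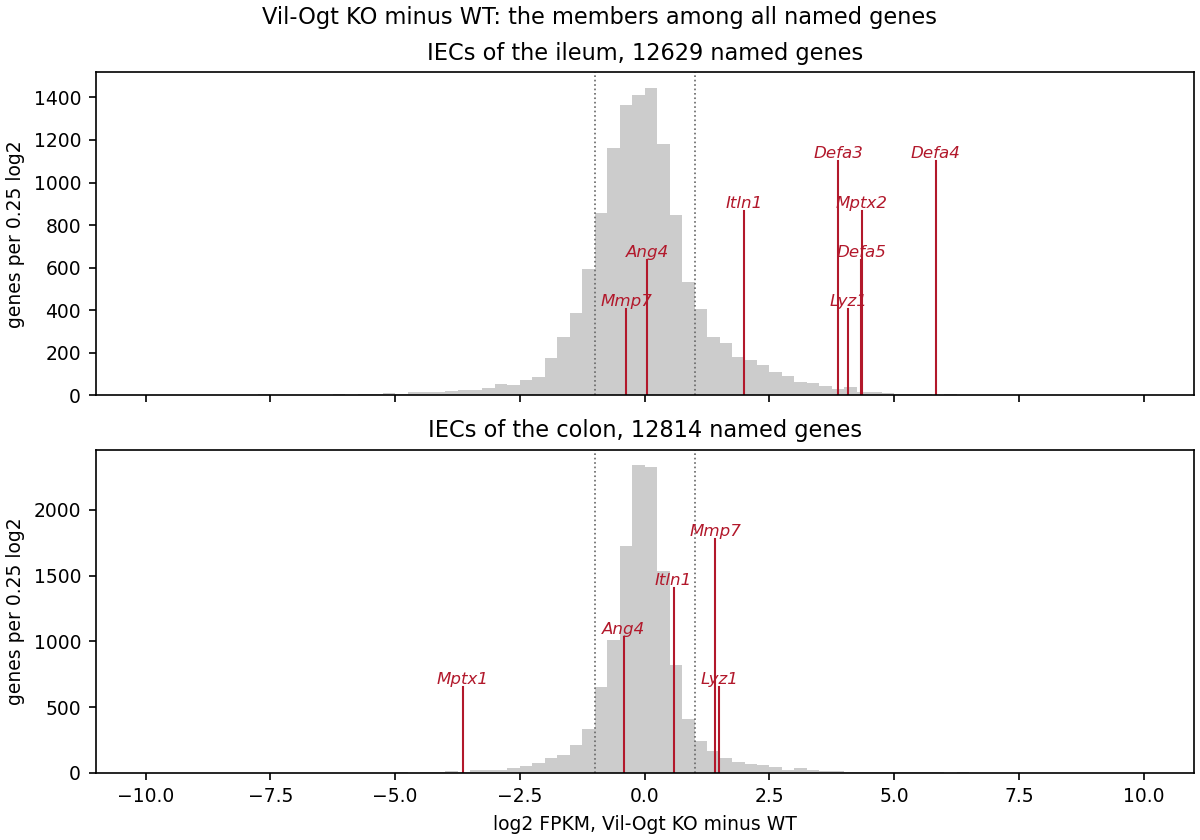
Difference of the log2 FPKM values, Vil-Ogt KO minus WT (horizontal axis), for all named genes with a level above 0 in both genotypes (grey bars, genes per 0.25) and for the members (red lines, whose heights carry no value); dotted lines mark 2-fold. In the ileum 6 members lie above 2-fold among 15.2% of all genes, and in the colon 2 lie above and Mptx1 lies below.

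In the colon the members were low, apart from Mptx1 and Ang4. Of the 5 members in the table, 2 were more than 2-fold higher in Vil-Ogt KO IECs, against 7.13% of all 12814 named genes, and 1 was more than 2-fold lower, against 8.26% (15.4% in both directions). Lyz1 had 1.39 FPKM in Vil-Ogt KO colon against 0.493 FPKM in WT colon, and Mmp7 had 1.6 FPKM in Vil-Ogt KO colon against 0.603 FPKM in WT colon. These levels exceeded those of 15.9% and 17.5% of all named genes in Vil-Ogt KO colon, and of 6.24% and 7.87% in WT colon, so both genes stood near the bottom of the table. Their differences of 1.49 and 1.41 on the log2 scale shrank to 0.68 and 0.70 when 1 FPKM was added to every value before taking logs, and neither then passed 2-fold. Itln1 had 2.1 FPKM in Vil-Ogt KO colon and 1.4 FPKM in WT colon. Ang4 was well above these, at 24.1 FPKM in Vil-Ogt KO colon and 32.2 FPKM in WT colon, a difference of -0.42.

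Mptx1 went the other way from Mptx2. Mptx1 (chr1:174330518-174332877) encodes a mucosal pentraxin described in the large bowel. It stood at 52 FPKM in Vil-Ogt KO colon against 648 FPKM in WT colon, a difference of -3.64 on the log2 scale. In WT colon it took place 162 among 12831 named genes. In the ileum Mptx1 was listed at 0 FPKM in Vil-Ogt KO against 3.68 FPKM in WT, so no fold is given there. Both pentraxins lie on chromosome 1 and their promoters are alike. The 250 bases before each annotated start (RefSeq, GRCm38.p6) are shown for Mptx1 (chr1:174330268-174330517, plus strand) and Mptx2 (chr1:173277757-173278006, minus strand), with bases that differ or have no partner in a global alignment in capitals.
Mptx1: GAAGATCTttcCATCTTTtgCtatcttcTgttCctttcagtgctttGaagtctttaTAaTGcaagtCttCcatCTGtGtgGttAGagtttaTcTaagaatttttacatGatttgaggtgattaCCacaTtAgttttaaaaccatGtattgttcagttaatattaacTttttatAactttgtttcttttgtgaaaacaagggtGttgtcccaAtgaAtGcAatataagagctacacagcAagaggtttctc
Mptx2: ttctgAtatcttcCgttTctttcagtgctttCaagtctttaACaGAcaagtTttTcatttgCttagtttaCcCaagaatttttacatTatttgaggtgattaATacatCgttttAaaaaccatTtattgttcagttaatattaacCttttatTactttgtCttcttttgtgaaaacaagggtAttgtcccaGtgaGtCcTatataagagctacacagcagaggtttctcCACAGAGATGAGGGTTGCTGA
Of 227 paired positions 202 are identical (89%), and most unpaired bases lie at the 5′ end of Mptx1 and the 3′ end of Mptx2. Among the 6 members with a promoter in the RefSeq table, identity over all alignment columns, gaps included, was 74% for this pair and between 48.1% and 52.4% for every other pair. The 2 genes nevertheless had opposite patterns, Mptx2 being high in Vil-Ogt KO ileum and absent from the colon table, and Mptx1 being high in WT colon and listed at 0 in Vil-Ogt KO ileum.

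Across the gut, levels of the members in the tables of the ileum and the colon can be set side by side, although the tables were normalized separately. In WT mice Lyz1 was 112-fold, Mmp7 128-fold, Itln1 59.7-fold and Ang4 3.73-fold higher in ileum than in colon. All 4 thus passed 2-fold in this direction, as did 5.47% of all 11846 genes compared. Mptx1 had a WT difference of -7.46 on the log2 scale, ileum minus colon, and 12.5% of all genes were more than 2-fold lower in ileum (18% in both directions). In Vil-Ogt KO mice Lyz1 was 676-fold, Itln1 159-fold, Mmp7 37.3-fold and Ang4 5.17-fold higher in ileum than in colon, where 8.15% of all 11859 genes were more than 2-fold higher and 13.9% more than 2-fold lower (22.1% in both directions, median -0.12). Lyz1 and Mmp7 took opposite courses here: the distance between ileum and colon was wider in Vil-Ogt KO than in WT for Lyz1 and narrower for Mmp7. The colon levels of both genes stood near the bottom of the table, so these distances are imprecise. WT ileum also carried large intestine markers, and their bearing on these distances was not tested.

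The member alpha-defensins are part of a cluster of 710 kb on chromosome 8 (chr8:21025545-21735471), in which RefSeq lists 29 protein-coding Defa genes. The ileum table has 23 rows there, 4 of them without a gene name. With 1 unnamed row listed at 0 in WT set aside, 21 of 22 rows were more than 2-fold higher in Vil-Ogt KO ileum and none was lower, with a median difference of 3.64 on the log2 scale. The exception was Gm15299, named Defa27 in RefSeq, at 1.84 FPKM in Vil-Ogt KO ileum and 1.68 FPKM in WT ileum, named here because its value stood apart. The FPKM values of the cluster summed to 14149 in Vil-Ogt KO ileum and 1197 in WT ileum, which is 1.57% and 0.15% of the summed FPKM of all loci. The sums differed 11.8-fold. They depend less than single rows on which copy a shared read was given to, but how reads that map to several copies were counted is not given in the sources used here. Defa24, named here as the most abundant row of the cluster with its values in view, made up 54.4% of the cluster sum in Vil-Ogt KO ileum and 60.1% in WT ileum, at 7697 FPKM in Vil-Ogt KO ileum against 719 FPKM in WT ileum. Named rows within 1 Mb on either side of the cluster, 16 in number, had a median difference of 0.36. Of these, 6 were more than 2-fold higher and none was more than 2-fold lower. Over all named genes of the ileum 15.2% were more than 2-fold higher and 15% more than 2-fold lower, with a median of -0.07. The flanks thus also held a larger share of higher rows than all named genes, though a smaller one than the cluster. In the colon the cluster had 2 rows, Defa24 and Defa20. Defa24 had 5.94 FPKM in Vil-Ogt KO colon against 1.61 FPKM in WT colon, and Defa20 had 0.664 FPKM in Vil-Ogt KO colon against 0.224 FPKM in WT colon.

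**Figure D3:**
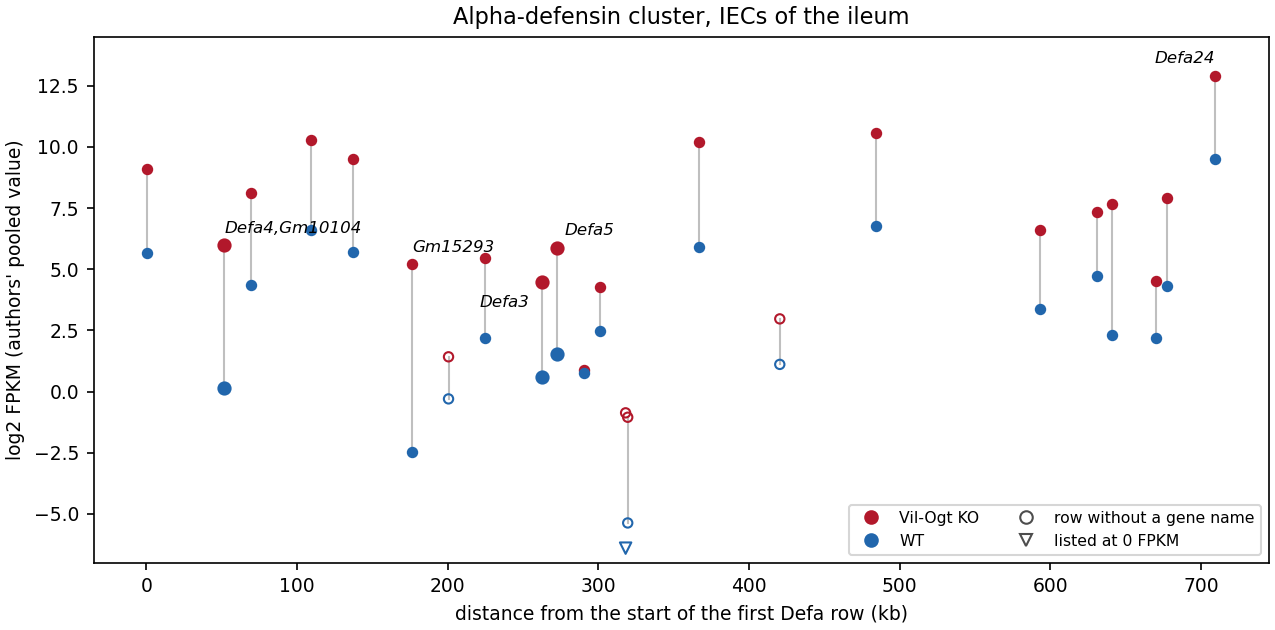
Log2 FPKM (vertical axis) of the 23 rows of the alpha-defensin cluster in IECs of the ileum by distance from the start of the first Defa row in kb (horizontal axis), with Vil-Ogt KO in red and WT in blue; larger points are members, open circles are rows without a gene name, and the triangle is a WT value listed at 0. In 21 of 22 rows with both values the Vil-Ogt KO point lies more than 2-fold higher.

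Beyond the members, a list of 64 other Paneth cell antimicrobial gene names was searched, and 18 had a row in the ileum table. All of these rows but Lyz2, Pla2g2a and the row of Ang and Rnase4 belong to the alpha-defensin cluster. They are thus the same rows as those counted there, seen again. Of the 18, 15 were more than 2-fold higher in Vil-Ogt KO ileum, against 15.2% of all named genes. None was more than 2-fold lower, against 15% of all named genes, and the median was 3.44. Outside the cluster only Pla2g2a was more than 2-fold higher. The largest differences among them were those of 4 alpha-defensin rows. Gm15293 (Defa41 in RefSeq) had 36.8 FPKM in Vil-Ogt KO ileum against 0.182 FPKM in WT ileum. Gm15315 (Defa34) had 201 FPKM in Vil-Ogt KO ileum against 4.92 FPKM in WT ileum. Gm21002 (Defa33), at 1160 FPKM in Vil-Ogt KO ileum and 59.3 FPKM in WT ileum, and Defa22, at 734 FPKM in Vil-Ogt KO ileum and 52.7 FPKM in WT ileum, were the more abundant of these. The 3 within 2-fold were Gm15299, Lyz2 and the row of Ang and Rnase4, which had 159 FPKM in Vil-Ogt KO ileum and 105 FPKM in WT ileum. In the colon 5 of the 64 names had a row. Of these, 3 were more than 2-fold higher, Defa20, Defa24 and Pla2g2a, against 7.13% of all named genes. Pla2g2a, a phospholipase that attacks bacterial membranes, had 112 FPKM in Vil-Ogt KO colon against 2.97 FPKM in WT colon. In the ileum it had 82.7 FPKM in Vil-Ogt KO and 17.3 FPKM in WT. The 3 genes within 2-fold, Defa20 in the colon and Pla2g2a in the ileum are likewise named with their values in view.

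Of 29 genes of Paneth cell identity and secretory machinery, 27 had a row in the ileum table. In Vil-Ogt KO ileum 6 were more than 2-fold higher, against 15.2% of all named genes, and 6 were more than 2-fold lower, against 15%. The other 15 lay within 2-fold, and the median was -0.31, against -0.07 over all genes. The lower ones included Atoh1, the transcription factor that starts the secretory lineage, at 4.69 FPKM in Vil-Ogt KO ileum against 9.51 FPKM in WT ileum, and Agr2, a protein disulfide isomerase of the secretory pathway, at 455 FPKM in Vil-Ogt KO ileum against 1596 FPKM in WT ileum. Fzd5, the Wnt receptor needed for Paneth cell maturation in mice, had 20.1 FPKM in Vil-Ogt KO ileum against 52.7 FPKM in WT ileum. Sox9, without which mice form no Paneth cells, had 5.21 FPKM in Vil-Ogt KO ileum and 10.3 FPKM in WT ileum, a difference of -0.98 that stayed within 2-fold. The 3 that were highest relative to WT were Pnliprp2, a lipase, at 34.5 FPKM in Vil-Ogt KO ileum against 1.83 FPKM in WT ileum, the lipase cofactor Clps, at 39.7 FPKM in Vil-Ogt KO ileum against 5.9 FPKM in WT ileum, and Habp2, at 2.58 FPKM in Vil-Ogt KO ileum against 0.423 FPKM in WT ileum. Wnt3, a Wnt ligand made by Paneth cells, was higher but low in both genotypes, at 1.48 FPKM in Vil-Ogt KO ileum against 0.595 FPKM in WT ileum. Tcf7l2, a transcription factor of Wnt signalling, was also higher, at 19.4 FPKM in Vil-Ogt KO ileum against 9 FPKM in WT ileum. Ephb2 and Ephb3 of the same list were lower. Ephb2 had 13.4 FPKM in Vil-Ogt KO ileum against 28.4 FPKM in WT ileum. Ephb3 had 2.22 FPKM in Vil-Ogt KO ileum against 4.35 FPKM in WT ileum, a difference within 2-fold. Atoh1, Fzd5, Sox9, Wnt3, Tcf7l2, Ephb2 and Ephb3 were picked with the values in view. In the colon 8 of 26 were more than 2-fold higher in Vil-Ogt KO, against 7.13% of all named genes, with a median of 0.46. Only 1 was more than 2-fold lower, against 8.26% of all named genes. It was the bacterial sensor gene Nod2, at 0.25 FPKM in Vil-Ogt KO colon against 1.06 FPKM in WT colon.

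Markers of goblet cells, the other main secretory cells, also differed in the same isolates. Of 15 goblet and deep crypt secretory markers measured in the ileum, 8 were more than 2-fold lower in Vil-Ogt KO, against 15% of all named genes. None was more than 2-fold higher, against 15.2% of all named genes, and the median was -1.21. Their FPKM summed to 4003 in Vil-Ogt KO ileum and 7970 in WT ileum. The other 7 lay within 2-fold. The 2 lowest relative to WT were Retnlb, at 1.17 FPKM in Vil-Ogt KO ileum against 78.2 FPKM in WT ileum, and Clca3, at 32.2 FPKM in Vil-Ogt KO ileum against 461 FPKM in WT ileum. Itln1, which goblet cells also make, was higher in Vil-Ogt KO ileum. In the colon 8 of 15 of these markers were more than 2-fold higher in Vil-Ogt KO, against 7.13% of all named genes. A further 2 were more than 2-fold lower, against 8.26% of all named genes, and the median was 1.79. The sums in the colon were 12757 FPKM in Vil-Ogt KO and 3009 FPKM in WT, while Mptx1 was lower. In the ileum, beside the 6.17-fold higher sum of small intestine markers in Vil-Ogt KO, the sum was 4.88-fold higher for the 9 members and 10.9-fold higher for the other Paneth cell antimicrobial genes. Sums rest mostly on the most abundant genes. The median log2 differences were 3.65, 3.98 and 3.44 in the same order, so the order of the lists depends on the measure. The part of goblet cells in the values of Itln1 and Mptx1 was not tested. In the colon 6 of 11 large intestine markers were more than 2-fold lower in Vil-Ogt KO, against 8.26% of all named genes, and none was higher. Of 12 small intestine markers, 9 were more than 2-fold higher, against 7.13% of all named genes, and none was more than 2-fold lower.

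**Figure D4:**
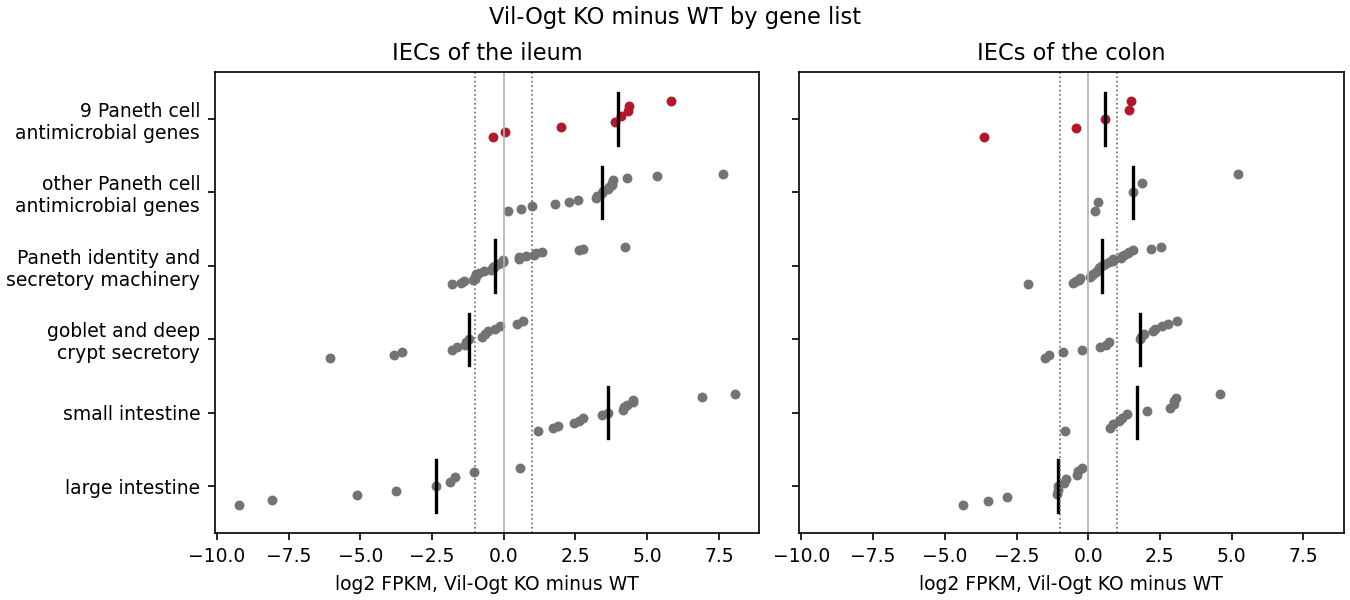
Difference of the log2 FPKM values, Vil-Ogt KO minus WT (horizontal axis), of single genes in 6 lists (rows; red for the 9 members, grey for the others, spread vertically by rank) in IECs of the ileum (left) and colon (right); black bars are medians and dotted lines mark 2-fold. In the ileum the medians are 3.98 for the members, 3.44 for other Paneth cell antimicrobial genes, -0.31 for Paneth identity and machinery, -1.21 for goblet, 3.65 for small intestine and -2.37 for large intestine markers.

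Genes with the pattern most like a member over the 4 pooled values were sought among 10750 single-gene rows. These had a row in both tissues, a level above 0 in all 4 values and a mean of at least 1 FPKM. The measure was the Euclidean distance of the log2 values after each gene's own mean was taken off. Of the alpha-defensin cluster only Defa24 and Defa20 had a row in the colon. The other rows of the cluster, and Mptx2, therefore could not appear as neighbours. Nearest to Lyz1 were the brush border peptidase gene Anpep (distance 1.24), E230016K23Rik (1.43) and Defa24 (1.56). Anpep, a gene of enterocytes, stood at log2 FPKM 10.88 in Vil-Ogt KO ileum, 8.42 in WT ileum, 2.8 in Vil-Ogt KO colon and 0.74 in WT colon. Nearest to Itln1 were E230016K23Rik (0.99), the anion exchanger gene Slc26a6 (1.16) and Anpep (1.68). Nearest to Mmp7 were Tmem9b (0.77), Ms4a18 and Ccl25, a chemokine gene of the small intestinal epithelium (1.30). Nearest to Ang4 were 2010107G12Rik (0.17), Ap3s2 (0.27) and Ubl5 (0.34). The 4 members with a level above 0 in all 4 groups thus shared no neighbour other than E230016K23Rik and Anpep, which lay near both Lyz1 and Itln1.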

How the data were processed

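IECs were isolated from ileum and colon with EDTA, and according to the study's methods their RNA was sequenced as single reads of 75 bases, trimmed with Trimmomatic and mapped to mm10 with TopHat (version 1.0.0 in the submitters' processing notes, which also name Bowtie and Cufflinks). The log2 FPKM values were made by the authors, as 1 pooled value per genotype and locus, with -10 standing for 0 FPKM. Values and depths of single libraries were not analysed here. The ileum table has 16521 loci and that of the colon has 18122 loci, and 1 emptied line each was skipped. The tables also hold the authors' own ratio, q-value and significance mark, and none of these was used. No column of per-sample values was left out.

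Starts were shifted to count from 1. Where several loci carried the same gene name, the locus of highest mean level stood for that gene. The difference of log2 FPKM was computed without a pseudocount where both values were above 0, and counted beyond 2-fold, the fold used in the study. FPKM near 0 rest on few reads, so low values are imprecise. Pooled values allow no test. Ileum and colon tables were treated as normalized separately. The counting steps were tested on simulated data. Other members of each list were named by rule: up to 4 per list and tissue with the largest absolute difference among genes with at least 1 FPKM in a genotype, with exceptions, named with their values in view, marked in the text. The 9 members, the lists and the settings were chosen with earlier results of these data known.

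Names and sequences came from RefSeq (GRCm38.p6) and GENCODE M21; 8 of 9 members had a GENCODE transcript of that name and 6 a RefSeq promoter. Shared words are exact matches of 75 bases on either strand of annotated transcripts. Alternatives were added pseudocounts, a minimum level, other folds, centring and single-name rows. Python 3.11.15, NumPy 2.4.6, pandas 2.3.3, Biopython 1.88 and matplotlib 3.10.9 were used.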

Additional observations from a re-analysis of the deposited data

How the results depend on the processing

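The count of members beyond 2-fold in the ileum, Vil-Ogt KO against WT (6), lay between 5 and 7 under all 7 alternatives, and was 7 where a pseudocount gave Mptx1 a difference (-2.23 with 1 FPKM added, -5.24 with 0.1 FPKM added). The count for WT ileum against WT colon (5) was 4 or 5. In the colon, Vil-Ogt KO against WT, the count of 3 became 1 with log2(FPKM + 1) and 1 at 4-fold, in both cases Mptx1, and 2 with a mean of at least 1 FPKM, where Lyz1 was left out. Lyz1 and Mmp7, not counted in the first 2 cases, are low in both genotypes, and adding 1 FPKM compresses low values by construction. No member's difference of more than 2-fold changed sign under these 7 alternatives. The minimum level, the other folds and the single-name rows cannot alter a member's difference. Under the pseudocounts and centring, which can, 8 of 54 values were as reported to 2 decimals and 46 shifted. With log2(FPKM + 1) the shares of all named genes beyond 2-fold were 9.18% in each direction in the ileum, against 15.2% higher and 15% lower as reported; in the colon they were 3.2% higher and 3.93% lower, against 7.13% and 8.26%, and between WT tissues 3.55% and 7.45%, against 5.47% and 12.5%. The 1.5-fold and 4-fold thresholds change these shares by construction. Centring moved the medians by 0.07 in the ileum, 0.04 in the colon and 0.08 between WT tissues. No paired analysis was possible because the tables hold 1 pooled value per genotype, and for the same reason no replicate could be left out. The depth of single libraries is unknown here, so no interval is given for a low level or a value listed at 0.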
